A study of Mus musculus with 6 samples.

Results

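The glucocorticoid receptor, its close relative and 7 genes around them were examined in newborn mouse hearts of controls and of mice labelled as cardiac knockouts of the histone demethylase gene Kdm5b. The 9 genes were taken from the deposited table of 56748 genes by their symbols. They were the receptor genes Nr3c1 and Nr3c2, the target genes Fkbp5, Tsc22d3, Zbtb16, Sgk1, Klf9 and Klf15, and the hormone-activating enzyme gene Hsd11b1. All 9 were found with a single identifier each, and 8 of them had a mean of at least 1 FPKM (reads scaled to gene length and library size) over the libraries, the level needed to be tested. Hsd11b1 lay below it and is given as values.

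Glucocorticoids are steroid hormones that enter cells and bind a receptor held in the cytoplasm by HSP90 and its partner proteins. The bound receptor moves to the nucleus and raises or lowers the transcription of genes near its binding sites, and the direct targets include brakes on the hormone's own action. In the heart the hormone surge around birth is known to promote maturation of muscle cells, and heart muscle also expresses the mineralocorticoid receptor, which binds the same hormones.

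Whole hearts were collected at postnatal day 1 and their total RNA was sequenced in 6 libraries. The 3 control libraries came from mice of the genotype FF, titled Flox, and the other 3 from mice titled as a cardiac specific knockout of kdm5b, genotype kdm5b Cko (cKO here). No hormone or other treatment is named for either group, and strain, sex, the driver of the knockout and the number of animals behind a library are not given in the sources at hand. All p-values therefore speak of the spread among these samples, which may be technical. RNA of every heart cell type is pooled in a library, so fewer cells of a type and less RNA per cell cannot be told apart.

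The libraries held 15658893 to 20339926 reads in genes, and the tissue label was borne out by Tnnt2, the cardiac troponin T gene, at 658 FPKM or more in every library. Kdm5b itself was at 3.19, 3.25 and 3.92 FPKM in FF against 2.80, 3.03 and 2.75 FPKM in cKO hearts. The deleted exons are not named in the labels, so this value over the whole gene is a weak check of the knockout. The share of reads from mitochondrial genes was 17.98% to 18.97% in FF and 12.8% to 15.7% in cKO libraries. FF replicate 3 stood apart. Its correlation with the other libraries over 12678 tested genes was 0.880 to 0.909, and the other pairs had 0.954 to 0.984. All 12 thymocyte markers were highest in it, with a summed level of 340 FPKM against 1.38 to 2.26 FPKM in the other 5 libraries. Genes of low GC content (the share of G and C bases in the transcript) read low in it. With tested genes in 5 equal bins by GC content, the median difference in log2(FPKM + 1) from the mean of FF replicates 1 and 2 was -0.75 in the lowest bin and 0.44 in the highest. The fitted differences of the 8 tested genes are therefore given with this library and without it. Values of other genes and of lists are in part given with all 6 libraries only.

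**Figure D1:**
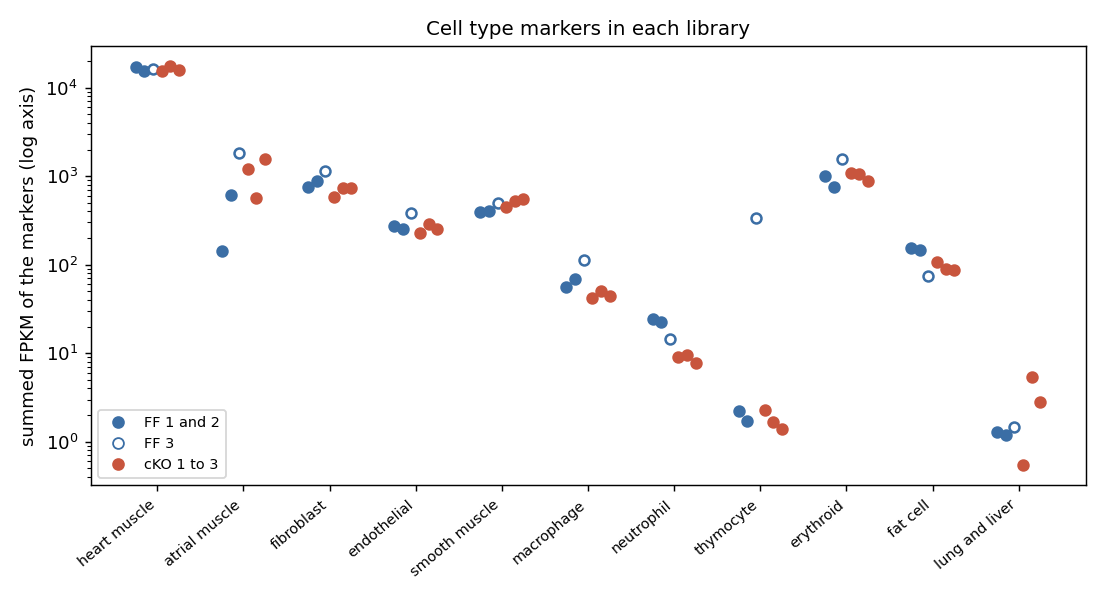
Summed FPKM of the markers of 11 cell types (horizontal axis) in each library, on a log axis. Filled blue points are FF replicates 1 and 2, open blue points FF replicate 3 and red points the 3 cKO hearts. Thymocyte markers reached 340 FPKM in FF replicate 3 and at most 2.26 FPKM elsewhere.

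Nr3c1 encodes the glucocorticoid receptor (ENSMUSG00000024431, chromosome 18, 39543598 to 39652474, minus strand, in the coordinates of the deposited table). Its level was 19.1, 16.1 and 7.12 FPKM in FF replicates 1, 2 and 3, and 12.3, 12.1 and 12.6 FPKM in the cKO hearts. The cKO hearts were thus nearly alike and lay below FF replicates 1 and 2 and above FF replicate 3. The means were 14.1 ± 6.22 and 12.3 ± 0.240 FPKM (SD, n = 3 each). With all 6 libraries the log2 difference of cKO minus FF was -0.08 (95% interval -0.86 to 0.70), with an adjusted p = 0.922 (limma, Benjamini-Hochberg). Without FF replicate 3 the change from the FF to the cKO mean was -30.0%, the log2 difference was -0.48 (SE 0.10), and the adjusted p of 0.0309 in limma passed the threshold. Without FF replicate 1 or 2 the difference turned to 0.18 or 0.06.

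Nr3c1 read low in FF replicate 3, and its transcript is of low GC content. At 42.2% GC it fell in the lowest of the 5 bins, and its deviation in that library, -1.19, went beyond the bin's median of -0.75. The part of GC content in this reading was not tested. When deviations shared by genes of like GC content were removed, the Nr3c1 difference was -0.17 with all 6 libraries (adjusted p = 0.568, limma) and -0.36 without FF replicate 3 (adjusted p = 0.0442, limma). Klf9, at 47.5% GC, deviated by -1.26, far below the median of -0.23 of its bin, and Zbtb16, at 53.6%, by -0.55 in a bin whose median was 0.28. Sgk1, Tsc22d3 and Fkbp5 deviated upwards there, by 0.36, 0.34 and 0.64, and Klf15 by 0.09.

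**Figure D2:**
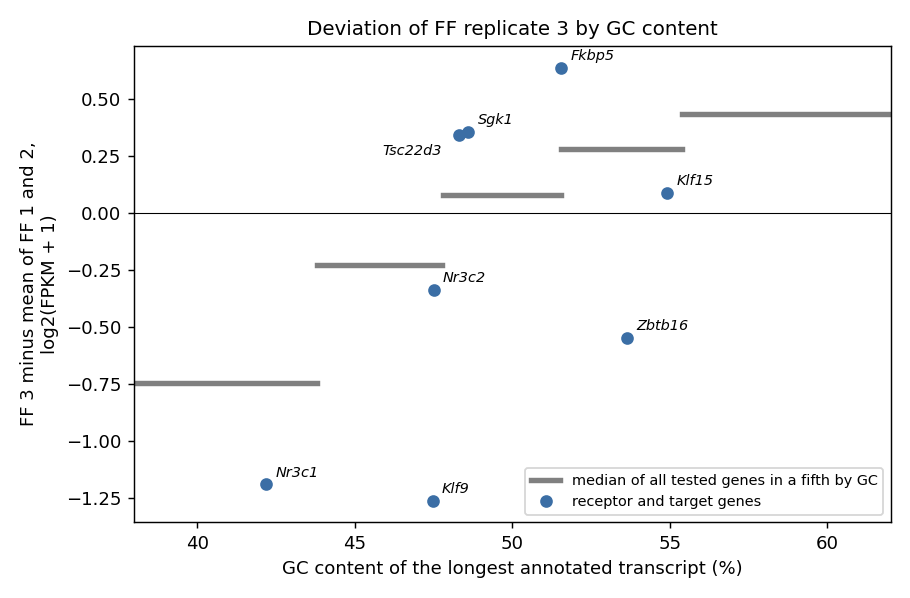
Deviation of FF replicate 3 from the mean of FF replicates 1 and 2, as log2(FPKM + 1), against the GC content of the longest annotated transcript in percent. Blue points are the 8 tested receptor and target genes, and grey bars are medians of all tested genes in each of 5 bins by GC content, which run from -0.75 to 0.44.

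Nr3c2 encodes the mineralocorticoid receptor (ENSMUSG00000031618, chromosome 8, 77626070 to 77971641, plus strand). It was read at 2.04, 2.21 and 1.48 FPKM in FF against 1.60, 2.10 and 1.99 FPKM in cKO hearts, from 183 to 280 reads per library. The groups overlapped, and the log2 difference was 0.00 (95% interval -0.38 to 0.38) with an adjusted p = 0.995 in limma, or -0.11 without FF replicate 3 (interval -0.42 to 0.20, adjusted p = 0.574). On the FPKM scale, which is per length, the mean of Nr3c1 over the 6 libraries was 13.2 and that of Nr3c2 1.90, and the lowest Nr3c1 value lay above the highest Nr3c2 value.

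**Figure D3:**
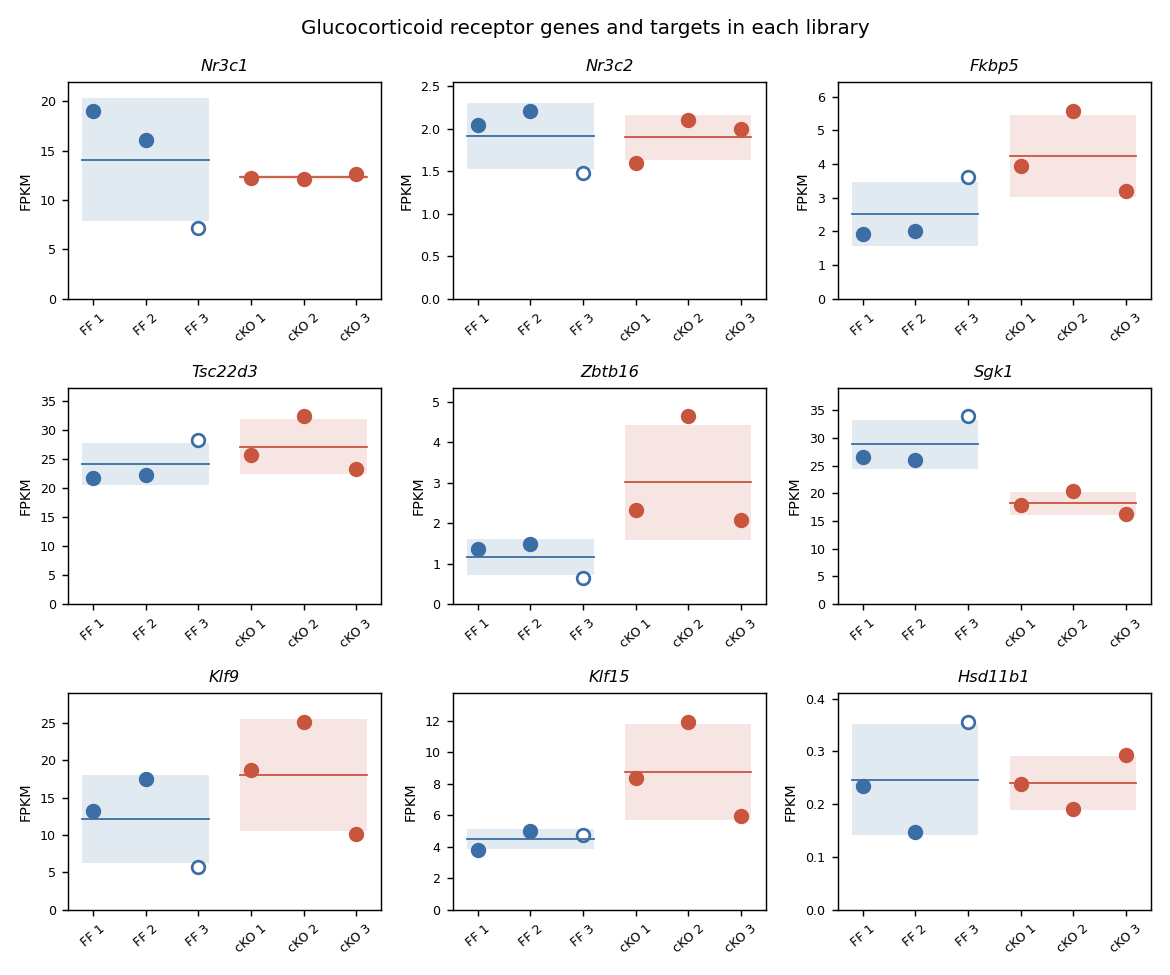
FPKM (vertical axes, from 0) of the 9 genes in each library. Blue points are FF and red points cKO hearts, the open point is FF replicate 3, and lines with bands give the group mean and 1 SD. The Zbtb16 and Klf15 values of cKO hearts all lie above those of FF hearts, and the Sgk1 values all lie below.

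Per length, the order of the mean levels over the 6 libraries was Tsc22d3 (25.7 FPKM), Sgk1 (23.5), Klf9 (15.1), Nr3c1 (13.2), Klf15 (6.63), Fkbp5 (3.38), Zbtb16 (2.09), Nr3c2 (1.90) and Hsd11b1 (0.243). The ranges of neighbours in this order overlapped over the libraries, except for Nr3c2 and Hsd11b1, whose values lay apart. Tsc22d3 was above 87.8% of tested genes and Nr3c2 above 16.0%.

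None of the 8 tested genes passed the threshold with all 6 libraries (limma adjusted p under 0.05), where 0.166% of the 12678 tested genes did, 0.071% as higher and 0.0947% as lower in cKO. Without FF replicate 3, Fkbp5 passed as higher, where 6.47% of 12631 genes did, and Nr3c1 and Sgk1 as lower, where 7.12% did, or 13.6% in both directions. At an unadjusted p under 0.05 with all 6 libraries there were 3, Zbtb16 and Klf15 as higher beside 8.39% of tested genes and Sgk1 as lower beside 9.55%, or 17.9% in both directions. The same 3 genes had groups that did not overlap, beside 28.0% of tested genes (13.5% higher and 14.5% lower). Without FF replicate 3 there were 6, with Fkbp5, Tsc22d3, Zbtb16 and Klf15 higher beside 25.1% of tested genes and Nr3c1 and Sgk1 lower beside 26.9%, or 52.1% in both directions. The median log2 difference of the 8 genes was 0.36 with all libraries and 0.21 without FF replicate 3, beside 0.01 and -0.01 over all tested genes. An exact permutation test of 3 against 3 cannot go below p = 0.1, which Zbtb16, Klf15 and Sgk1 reached.

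Fkbp5 encodes FKBP51, an HSP90 partner that lowers the receptor's affinity for hormone and is itself induced by the receptor (ENSMUSG00000024222, chromosome 17, 28618068 to 28736501, minus strand). It stood at 1.93, 2.01 and 3.62 FPKM in FF against 3.94, 5.59 and 3.21 FPKM in cKO hearts. FF replicates 1 and 2 were below every cKO heart, while FF replicate 3 lay between cKO replicates 3 and 1. The means were 2.52 ± 0.954 and 4.24 ± 1.22 FPKM (SD, n = 3 each), a log2 difference of 0.58 (95% interval 0.00 to 1.17, limma adjusted p = 0.279). Without FF replicate 3 the level in cKO was 2.16 times that in FF, and the log2 difference of 0.80 (SE 0.19) passed with an adjusted p = 0.0393 in limma. Without cKO replicate 2 the difference was 0.41.

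Zbtb16 encodes PLZF, a zinc finger repressor known as a strongly induced target of the receptor (ENSMUSG00000066687, chromosome 9, 48565597 to 48747522, minus strand). Its values were 1.35, 1.48 and 0.653 FPKM in FF against 2.32, 4.64 and 2.07 FPKM in cKO hearts. All cKO hearts were above all FF hearts, and the ratio of the means was 2.59, or 2.13 without FF replicate 3. The reads were few, 66 to 125 in FF and 237 to 485 in cKO libraries, but the exact 95% Poisson intervals, which cover counting error only, were also apart, with an upper bound of 1.76 FPKM in FF replicate 2 and a lower bound of 1.81 FPKM in cKO replicate 3. The log2 difference of 0.86 (SE 0.28) had an adjusted p = 0.193, and 0.68 without FF replicate 3 had an adjusted p = 0.120 (limma, Benjamini-Hochberg), so the gene did not pass in either fit.

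Tsc22d3 encodes GILZ, a leucine zipper protein that carries part of the hormone's action against inflammation (ENSMUSG00000031431, chromosome X, 139440277 to 139501408, minus strand). It was the most abundant of the 9 genes per length, at 21.9, 22.4 and 28.3 FPKM in FF against 25.7, 32.5 and 23.4 FPKM in cKO hearts. FF replicates 1 and 2 were the lowest libraries, and FF replicate 3 was above cKO replicates 1 and 3. The log2 difference was 0.16 (95% interval -0.25 to 0.57, limma adjusted p = 0.670), or 0.27 without FF replicate 3 (interval -0.06 to 0.61, adjusted p = 0.221). Thymocytes are known to express this gene, and the library in which it was highest among FF hearts is the library with thymocyte markers. Their part in the value was not tested.

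Klf9 and Klf15 encode Kruppel-like transcription factors that the receptor is known to induce, the latter a regulator of amino acid and lipid use in heart and muscle. Klf9 (ENSMUSG00000033863, chromosome 19, 23118590 to 23145498, plus strand) was at 13.1, 17.5 and 5.74 FPKM in FF against 18.7, 25.2 and 10.1 FPKM in cKO hearts. Both groups spread over more than their difference, and the log2 difference was 0.57 (95% interval -0.50 to 1.64, limma adjusted p = 0.559), or 0.15 without FF replicate 3 (interval -0.64 to 0.93, adjusted p = 0.784). Klf15 (ENSMUSG00000030087, chromosome 6, 90439558 to 90452220, plus strand) was at 3.80, 5.02 and 4.72 FPKM in FF against 8.35, 12.0 and 5.96 FPKM in cKO hearts. Every cKO heart was above every FF heart here, and FF replicate 3 lay between the other FF hearts. The ratio of the Klf15 means was 1.94 with that library and 1.99 without it. Its log2 differences of 0.78 (SE 0.24, adjusted p = 0.170) and 0.81 (SE 0.25, adjusted p = 0.0713) did not pass in limma.

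Sgk1 encodes a serum and glucocorticoid regulated kinase that controls sodium channels and cell survival and answers to both receptors (ENSMUSG00000019970, chromosome 10, 21758083 to 21875802, plus strand). It ran the other way, at 26.5, 26.1 and 34.0 FPKM in FF against 17.8, 20.4 and 16.3 FPKM in cKO hearts. All cKO hearts were below all FF hearts, from 1725 reads or more in each library. The means were 28.9 ± 4.43 and 18.2 ± 2.07 FPKM (SD, n = 3 each), a change of -37.0%. The log2 difference of -0.63 (SE 0.15) had an adjusted p = 0.115, and without FF replicate 3 it was -0.51 (SE 0.11) with an adjusted p = 0.0328 (limma, Benjamini-Hochberg). The log2 difference ran from -0.72 to -0.51 under the 21 alternatives. As the groups did not overlap, leaving out a library or changing the pseudocount could not turn its sign.

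Promoters were read from RefSeq on GRCm38.p6, from 250 bases before to 50 bases after an annotated start. They were matched by symbol for 7 of the 9 genes, in 14 windows, and not for Nr3c1 and Zbtb16. Both strands were searched for the palindrome that the receptor dimer is known to bind, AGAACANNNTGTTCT, for its arm AGAACA, which is contained in the palindrome, and for CACGTG, the E-box bound by clock and Myc family factors. Of 32817 windows over all genes, 3 held the palindrome, 19.0% the arm and 7.15% the E-box. The windows below are a selection. The Sgk1 window shown holds 1 of those 3 palindromes, and no other window of the 7 genes does, including the other Sgk1 windows. Windows of Klf15 and Fkbp5, genes with higher means in cKO hearts, are shown beside it. Whether the motifs go with the direction of a difference was not tested. Tsc22d3 is added as an arm without its partner. Capitals mark matches to any of these motifs.
Sgk1, chr10:21993640-21993939, plus strand: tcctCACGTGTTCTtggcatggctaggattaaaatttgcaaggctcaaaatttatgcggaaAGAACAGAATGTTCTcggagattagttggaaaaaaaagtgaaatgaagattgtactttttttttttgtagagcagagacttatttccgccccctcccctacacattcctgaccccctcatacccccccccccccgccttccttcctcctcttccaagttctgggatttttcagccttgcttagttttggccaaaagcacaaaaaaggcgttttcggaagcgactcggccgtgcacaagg
Tsc22d3, chrX:140600473-140600772, minus strand: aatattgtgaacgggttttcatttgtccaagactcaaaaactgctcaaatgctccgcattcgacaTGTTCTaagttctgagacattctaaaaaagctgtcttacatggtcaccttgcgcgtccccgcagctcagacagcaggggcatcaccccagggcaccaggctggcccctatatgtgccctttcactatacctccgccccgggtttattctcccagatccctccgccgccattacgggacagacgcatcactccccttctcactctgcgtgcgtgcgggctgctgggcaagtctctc
Klf15, chr6:90462326-90462625, plus strand: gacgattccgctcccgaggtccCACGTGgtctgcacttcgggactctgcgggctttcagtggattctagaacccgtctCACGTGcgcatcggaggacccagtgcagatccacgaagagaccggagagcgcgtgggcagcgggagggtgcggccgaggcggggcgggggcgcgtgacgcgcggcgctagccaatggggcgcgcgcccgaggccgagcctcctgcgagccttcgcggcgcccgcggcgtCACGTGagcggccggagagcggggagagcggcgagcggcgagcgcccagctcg
Fkbp5, chr17:28486100-28486399, minus strand: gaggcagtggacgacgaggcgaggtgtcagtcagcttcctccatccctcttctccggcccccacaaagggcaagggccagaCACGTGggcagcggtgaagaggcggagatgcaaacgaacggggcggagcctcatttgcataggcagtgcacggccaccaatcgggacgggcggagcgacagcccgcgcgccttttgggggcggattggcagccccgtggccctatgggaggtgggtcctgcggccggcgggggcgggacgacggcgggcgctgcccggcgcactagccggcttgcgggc

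The Sgk1 palindrome starts 189 bases before that start, which is 1 of 6 annotated for the gene, and the table does not say which start was used in these hearts. An E-box 246 bases before the start overlaps an arm at 242 bases. The Tsc22d3 arm lies 185 bases before 1 of 3 starts. The Klf15 window holds 3 E-boxes and the Fkbp5 window 1. They are also rich in CpG, with 47 and 32 CG pairs in 300 bases against a median of 7 over all windows. The Sgk1 window shown has 10, but another Sgk1 window has 28, and the 3 windows of Tsc22d3 have 16, 15 and 3. Whether CpG content goes with the direction of a difference was not tested. These are matches of letters in a short window and say nothing about binding sites farther away, where several known sites of these genes lie.

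Hsd11b1 encodes the enzyme that turns inactive 11-keto steroids into active hormone inside cells (ENSMUSG00000016194, chromosome 1, 192903942 to 192946383, minus strand). It was barely read, with 10 to 29 reads per library, or 0.234, 0.147 and 0.356 FPKM in FF against 0.238, 0.190 and 0.293 FPKM in cKO hearts. The exact 95% Poisson interval ran from 0.0705 to 0.271 FPKM in FF replicate 2 and from 0.193 to 0.426 FPKM in cKO replicate 3, and the groups overlapped. An exact two-sided permutation test over the 6 libraries gave p = 1.0. The gene lies across Lamb3 on the opposite strand, which held up to 405 reads, and no source used here gives the strand setting of the counting.

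**Figure D4:**
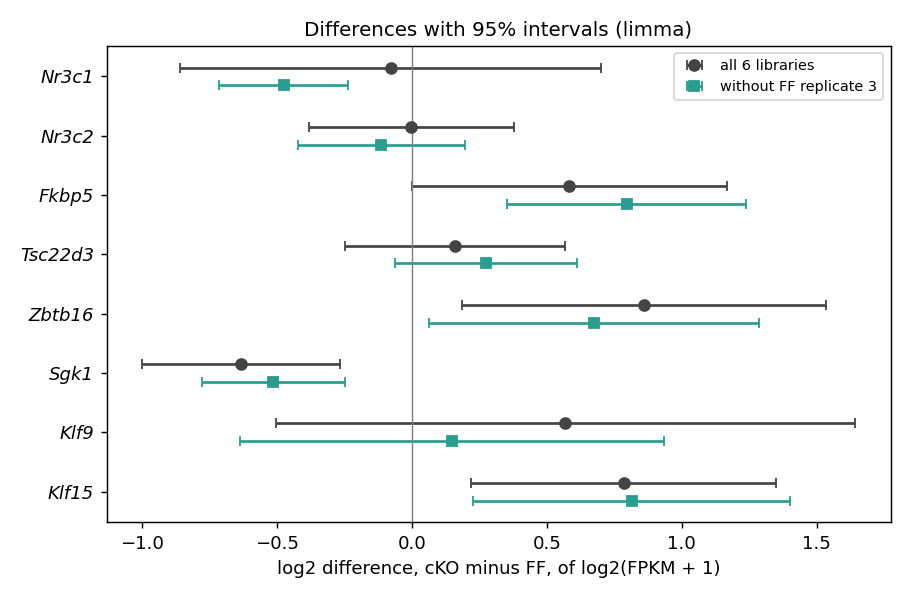
Difference in log2(FPKM + 1), cKO minus FF (horizontal axis), with 95% intervals from limma for the 8 tested genes. Black circles use all 6 libraries and green squares leave out FF replicate 3, which moves Nr3c1 from -0.08 to -0.48 and leaves Klf15 between 0.78 and 0.81.

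The cKO hearts also differed among themselves in a shared order. Fkbp5, Tsc22d3, Zbtb16, Sgk1, Klf9 and Klf15 were all highest in cKO replicate 2, next in cKO replicate 1 and lowest in cKO replicate 3, an order held by 15.4% of the 12678 tested genes. The receptor gene Nr3c1 did not show it. The ratio of cKO replicate 2 to cKO replicate 3 was 2.48 for Klf9, 2.25 for Zbtb16, 2.01 for Klf15, 1.74 for Fkbp5, 1.39 for Tsc22d3 and 1.25 for Sgk1, beside a median highest-to-lowest ratio of 1.22 over tested genes. Of 34 other tested genes known to be induced by glucocorticoids, 16 had the same order (47.1%), among them Per1, Mt1, Glul, Ptgds, Sesn1, Tgm2 and Hif3a. The order was noticed in these libraries, so its frequency is a description with no test.

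The receptor is folded and held by HSP90 proteins and their cochaperones. Of 14 such genes tested, 0 passed with all 6 libraries, and without FF replicate 3 Fkbp5 passed as higher and Fkbp4, Bag1 and Dnaja1 as lower, beside 6.47% and 7.12% of all tested genes. Fkbp4 encodes FKBP52, the counterpart of FKBP51 that favours the receptor's move to the nucleus. It was at 75.7, 73.8 and 81.7 FPKM in FF against 47.3, 49.1 and 46.3 FPKM in cKO hearts, with no overlap. Its log2 difference was -0.68 (adjusted p = 0.0659, limma), or -0.64 (adjusted p = 0.0130) without FF replicate 3. Bag1, a cochaperone of HSP70 that also binds the receptor, was at 118, 114 and 128 FPKM in FF against 86.4, 89.0 and 82.1 FPKM in cKO hearts (adjusted p = 0.108, and 0.0328 without FF replicate 3, limma). The median log2 difference of the 14 genes was -0.20, beside 0.01 over all tested genes. Fkbp5 and Fkbp4 thus stood on opposite sides, the former higher and the latter lower in cKO hearts, and neither passed with all 6 libraries.

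Of 14 coactivators and corepressors tested, none passed with or without FF replicate 3. Ep300, a histone acetyltransferase that assists many receptors, was at 3.25, 3.00 and 2.13 FPKM in FF against 4.80, 3.88 and 5.09 FPKM in cKO hearts (adjusted p = 0.163, and 0.0618 without FF replicate 3, limma). Ppargc1a, the PGC-1alpha coactivator of mitochondrial genes, was at 18.2, 17.6 and 5.32 FPKM in FF against 26.4, 24.1 and 20.6 FPKM in cKO hearts, without overlap. Its log2 difference of 0.91 shrank to 0.38 without FF replicate 3 (limma adjusted p = 0.333 and 0.0765).

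Local handling of the hormone was little represented. Only 3 of 13 listed genes reached the level for testing, and Cyp11b1, Cyp11b2, Cyp21a1, Akr1d1 and Serpina6, which act in adrenal gland and liver, were listed at 0 in every library. H6pd, which supplies the cofactor of the Hsd11b1 enzyme, was at 5.85, 5.25 and 11.2 FPKM in FF against 7.62, 10.3 and 9.34 FPKM in cKO hearts. It passed as higher without FF replicate 3 (log2 difference 0.62, adjusted p = 0.0319, limma), beside 6.47% of all tested genes. With that library H6pd did not pass (0.32, adjusted p = 0.590, limma). Hsd11b2, which inactivates the hormone, stayed at or below 0.302 FPKM. Abcb1a, an efflux pump, had log2 differences of 0.35 and, without FF replicate 3, 0.06 (limma adjusted p = 0.537 and 0.777).

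A list of 42 other genes known to be induced by glucocorticoids in various tissues split in both directions. Of its 34 tested genes, 16 had higher and 18 lower means of the log values in cKO hearts, and the median log2 difference was -0.01. With all 6 libraries only Hif3a passed, the hypoxia-inducible factor subunit gene, at 1.49, 2.49 and 3.39 FPKM in FF against 11.7, 14.3 and 11.2 FPKM in cKO hearts (adjusted p = 0.0496, limma). It did not pass with limma voom, a robust prior, the replicate number as a block, a pseudocount of 0.1 or 0.5, or no filter. Nor did Hif3a pass without any 1 library other than FF replicate 3. Without FF replicate 3, 10 genes passed as higher and 4 as lower, beside 6.47% and 7.12% of all tested genes. Groups did not overlap for 18 of the 34 genes, 11 above and 7 below, beside 28.0% of all tested genes.

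The genes of this list named in this paragraph and the next were chosen after their values were seen, other than Klf4, and Per1, which the rule named from the list of sodium transport genes. Fbxo32 encodes atrogin-1, a ubiquitin ligase of muscle wasting, and was at 4.34 ± 0.934 FPKM in FF against 12.0 ± 1.31 FPKM in cKO hearts (SD, n = 3 each). The glutamine synthetase gene Glul was at 48.0, 47.5 and 49.6 FPKM in FF against 75.5, 98.5 and 67.9 FPKM in cKO hearts, so FF replicate 3 matched the other FF hearts. Foxo3, a transcription factor upstream of Fbxo32, was at 7.44 ± 1.18 and 12.5 ± 2.45 FPKM, and Txnip, a brake on glucose uptake, at 196 ± 28.8 and 358 ± 4.96 FPKM (SD, n = 3 each). The metallothionein gene Mt1, the prostaglandin D synthase gene Ptgds, the transglutaminase gene Tgm2 and the lymphatic and macrophage receptor gene Lyve1 had log2 differences of 0.63, 0.55, 0.96 and 0.80. None of these 8 genes passed with all 6 libraries (limma adjusted p from 0.0571 to 0.131), and all 8 passed without FF replicate 3 (0.00802 to 0.0333). Cdkn1c, an inhibitor of cyclin-dependent kinases, completed the 10 without that library, with an adjusted p = 0.0498 in limma, and overlapped between the groups with it.

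Among the genes of the list with lower levels, Klf4, a Kruppel-like factor, was at 19.7, 21.8 and 22.9 FPKM in FF against 7.01, 10.0 and 9.29 FPKM in cKO hearts. Dusp1, a phosphatase that ends MAP kinase signals, was at 17.5, 18.8 and 29.4 FPKM in FF against 9.51, 9.92 and 10.1 FPKM in cKO hearts. Rgs2, a brake on G protein signals, was at 12.7 ± 0.802 and 6.82 ± 1.18 FPKM (SD, n = 3 each). These 3 had limma adjusted p of 0.0562, 0.0772 and 0.0724 with all 6 libraries and 0.0122, 0.00874 and 0.0157 without FF replicate 3. Klf6 passed as lower without that library (adjusted p = 0.0140, limma) and overlapped with it. The clock gene Per1, a direct target of the receptor, was at 28.2, 45.0 and 56.1 FPKM in FF against 15.4, 25.5 and 13.1 FPKM in cKO hearts, with no overlap and a log2 difference of -1.22 that did not pass (adjusted p = 0.139, and 0.0656 without FF replicate 3, limma). Pdk4, a pyruvate dehydrogenase kinase gene, was at 94.2 ± 15.3 and 90.7 ± 15.7 FPKM (SD, n = 3 each).

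**Figure D5:**
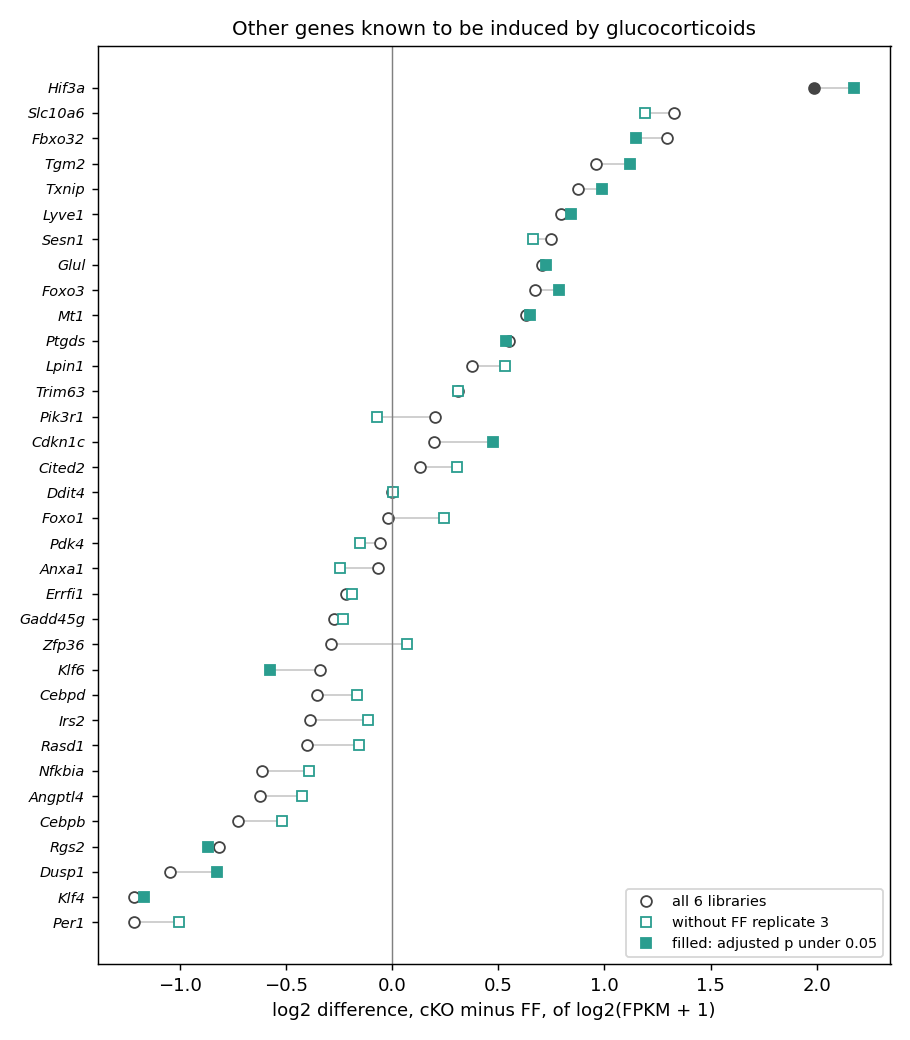
Difference in log2(FPKM + 1), cKO minus FF (horizontal axis), for the 34 tested genes of the list of other genes induced by glucocorticoids. Circles use all 6 libraries, squares leave out FF replicate 3, and filled symbols passed an adjusted p of 0.05 in limma. With all 6 libraries the ends of the range are Hif3a at 1.99 and Per1 at -1.22.

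Sodium transport genes known to follow the mineralocorticoid receptor were tested for 7 of 10 listed. Besides Sgk1, which passed as lower without FF replicate 3, where 7.12% of all tested genes did, none passed in either fit. The subunit genes of the epithelial sodium channel lay below the level for testing, with Scnn1a at 0.213 to 1.45 FPKM and Scnn1g at 0. Among 5 genes known to follow KLF15, Bcat2, the mitochondrial branched-chain aminotransferase gene, was at 10.1, 7.73 and 7.06 FPKM in FF against 13.9, 14.4 and 14.2 FPKM in cKO hearts. It was 1 of the 5 to pass without FF replicate 3, where 13.6% of all tested genes did (adjusted p = 0.0255, against 0.0872 with it, limma). Slc2a4, the insulin-regulated glucose transporter gene, was at 26.4, 24.5 and 29.7 FPKM in FF against 30.7, 40.8 and 36.2 FPKM in cKO hearts without overlap (adjusted p = 0.236, and 0.0564 without FF replicate 3, limma). Kcnip2, a potassium channel subunit gene, was at 26.3 ± 2.54 and 26.7 ± 1.64 FPKM (SD, n = 3 each).

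Of 16 inflammatory genes known to be repressed by glucocorticoids, 5 were abundant enough to test and none passed in either fit. The chemokine gene Ccl2 was at 3.96, 2.64 and 2.20 FPKM in FF against 1.16, 2.49 and 1.17 FPKM in cKO hearts (log2 difference -0.61, adjusted p = 0.283, limma), and the adhesion gene Vcam1 at 7.97, 6.87 and 7.47 and at 8.73, 9.73 and 10.9 FPKM (0.35, adjusted p = 0.227). Summed markers of macrophages and neutrophils were lower in every cKO heart than in every FF heart, but single markers often overlapped. Those with all cKO hearts below all FF hearts were 4 of 8 macrophage and 4 of 7 neutrophil markers, and 0 lay above. Over all tested genes, 14.5% lay below and 13.5% above in this way. The summed level of 8 macrophage markers was 55.6 to 114 FPKM in FF and 42.0 to 50.5 FPKM in cKO hearts, and that of 7 neutrophil markers 14.5 to 24.2 and 7.71 to 9.65 FPKM, with Mpo or Elane at 0 in some libraries. The macrophage sum of 114 FPKM was that of FF replicate 3, where 5 of the 8 markers were highest. The 10 fibroblast markers summed to 746 to 1133 FPKM in FF and 589 to 744 FPKM in cKO hearts, so the sums nearly met. Of these 10, 4 lay below and 1 above in cKO hearts without overlap, beside the same 14.5% and 13.5%. Other lists also held markers without overlap. Of 7 erythroid markers 4 lay above and 0 below in cKO hearts, and of 8 endothelial markers 0 above and 3 below. Of 10 heart muscle markers 3 lay above and 2 below. The part of any of these cells in the differences was not tested.

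Contraction and calcium genes that have been studied in fetal hearts without the receptor were all above the level for testing. None of the 12 passed with all 6 libraries, and without FF replicate 3 Slc8a1 and Nppa passed as higher and Myl2 and Pln as lower, beside the same 6.47% and 7.12%. Slc8a1, the sodium and calcium exchanger gene, was at 54.4, 41.3 and 26.0 FPKM in FF against 74.6, 78.2 and 78.0 FPKM in cKO hearts, and Myl2, the ventricular myosin light chain gene, at 3720 ± 483 and 2494 ± 233 FPKM (SD, n = 3 each). Atrial markers varied between 144 and 1816 FPKM in sum within the FF group alone, and Nppa is among them. Their part in the Nppa value was not tested.

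Over the 6 libraries the profile of Nr3c1 was most like those of Rab11a (Pearson's r of log2(FPKM + 1) 0.998) and Nucks1 (0.996), out of 11494 named genes compared. For Fkbp5 the nearest was Ckb, for Tsc22d3 Cited2 and Ptgs1, for Zbtb16 Ccdc28b and Lamb1, and for Sgk1 Gprc5a and Gemin7. For Klf9 they were Fbxl4 and Smim20, for Klf15 Acy1 and Fbxo31, and for Nr3c2 Rraga and Mir3097. All of these likenesses had r of at least 0.971. They are the highest of many values over only 6 points, which share the deviation of FF replicate 3, and are given as a description. Cited2 is itself on the list of other induced genes, at 15.7 to 25.6 FPKM.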

How the data were processed

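The authors deposited FPKM values of 6 libraries, per the file headers, and the labels' protocols name the miRNeasy micro kit for extraction and the Ovation Ultralow V2 kit for libraries. Listed in the submitters' processing notes are TopHat2 2.0.13, featureCounts of Subread, edgeR and FastQC, without order, and the builds GRCm39, mm10 and GRCh38, without roles. No start and end of the 9 genes equalled those of GENCODE M21 on GRCm38, so gene coordinates are printed as deposited, and promoters on GRCm38.p6. No source used here gives the scaling behind the FPKM. Median-ratio factors computed from them were 1.01416971 in every library, so the FPKM were already even between libraries by this measure. FPKM times gene length gave whole reads within 0.1 for 100% of values up to 200 reads.

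limma 3.58.1 in R 4.3.3 fitted group alone to log2(FPKM + 1), with a variance trend and Benjamini-Hochberg adjustment at 0.05, over genes whose mean reached 1 FPKM in the libraries fitted. Log2 differences on this scale understate changes of low genes. GC content came from the longest GENCODE M21 transcript. The fit was tested on simulated counts in which no library deviated, so that test does not cover a case like FF replicate 3.

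The 9 genes, the 9 pathway lists and the 11 marker lists were chosen with earlier results of these data known. The rule for named genes took the 9 genes, up to 4 passing genes of each list or otherwise the 2 with the smallest p, and the 2 genes most like each tested gene. Other genes of the lists were named after their values were seen, and some results are not reported here. The alternatives were 17 chosen with the design and 4 chosen after seeing the data.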

Additional observations from a re-analysis of the deposited data

How the results depend on the processing

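Leaving out 1 library at a time gave 0 to 1716 genes past the threshold in limma. The count was 1716 without FF replicate 3 and 0 without any other library, against 21 with all 6. In the fits with 0, 1270 to 2049 genes had an unadjusted p under 0.05 (limma), against 2275 with all 6. The log2 differences then ran from -0.48 to 0.18 for Nr3c1, 0.41 to 0.80 for Fkbp5, -0.72 to -0.51 for Sgk1 and -0.11 to 0.075 for Nr3c2. Of the 9 genes 3 to 6 did not overlap between groups, 0 to 3 passed, and 0 to 23 of the other pathway genes passed, against 3, 0 and 1 with all libraries. Where a group keeps 2 libraries, limma borrows the spread of the other group. Deviations of same-numbered libraries from their group means correlated at 0.38, -0.24 and 0.24 across genes, and those of other pairs at -0.42 to 0.35. With so few libraries these values cannot show whether the replicate numbers pair the samples. With the replicate number as a block 2 genes passed, and 0 of the pathway genes. In that fit the SE of Klf9 was 0.15, against 0.45 without the block, and Klf9 did not pass (adjusted p = 0.207, limma).

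Other settings gave, for all genes and for pathway genes, 53 and 3 with a minimum mean of 5 FPKM, 0 and 0 without a filter (3210 at an unadjusted p under 0.05), 11 and 0 with a pseudocount of 0.1, and 59 and 5 with quantile normalization. They gave 34 and 2 when rescaled outside mitochondrial and haemoglobin genes, 13 and 0 with a robust prior, 11 and 0 with limma voom on the recovered reads, and 522 and 12 after GC correction. With a pseudocount of 0.5, 0 pathway genes passed. Library weights gave 4300 and 43, and 5 of the 9 genes, with differences of 0.72 for Fkbp5, 0.61 for Klf15, -0.37 for Nr3c1, -0.54 for Sgk1 and 0.60 for Zbtb16. Under these weights Klf9 turned to -0.12, and with voom Nr3c2 to 0.010, and the cause was not tested. Without FF replicate 3 as well, GC correction gave 1949 and 22 with 3 of the 9 genes (Fkbp5 0.76, Nr3c1 -0.36, Sgk1 -0.52), voom 2483 and 33 with 4 (Fkbp5 1.07, Klf15 0.94, Nr3c1 -0.51, Sgk1 -0.54), and the filter over all 6 libraries 1520 and 20 with 3 (Fkbp5 0.80, Nr3c1 -0.48, Sgk1 -0.51). Median-ratio scaling left 21 genes, but its factor was 1.01 in every library, so it tried no other scaling between libraries. Fkbp5, Zbtb16, Klf15 and Tsc22d3 stayed positive and Sgk1 negative in every fit that tested them. For Zbtb16, Klf15 and Sgk1, whose groups did not overlap, leaving out a library or changing the pseudocount could not turn the sign. Counts of 10 to 29 reads limit Hsd11b1.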
